A study of Homo sapiens with 8 samples.

Results

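The kinase gene CDK5, the genes of its activators CDK5R1 and CDK5R2, and the genes of the CDK5-binding proteins CDK5RAP1, CDK5RAP2 and CDK5RAP3 are 6 of the 35238 symbols in the count table, and they were followed across HDAC and BET inhibition in uveal melanoma (UM) cells. They were chosen by the counts of CDK5R2, known to be far higher with every drug than in the control, so the CDK5R2 values against the control are given as a description without a test. All 6 passed the filter on low counts, which left 15085 genes to be tested. The cells were MP38, a single BAP1-mutant UM cell line, grown in six-well plates and treated for 24 h. The control wells received 0.1% DMSO, and the drug wells received romidepsin at 40 nM, quisinostat at 40 nM or mivebresib at 1200 nM, each in the same 0.1% DMSO. The first pair are inhibitors of histone deacetylases (HDAC), while mivebresib keeps BET proteins, readers of acetylated histones, from binding through their bromodomains. Bulk RNA was sequenced from duplicate wells, which gave 8 libraries in 4 groups of 2, so p-values measure only the spread between such wells.

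CDK5 is a proline-directed serine/threonine kinase that belongs to the cyclin-dependent kinases by sequence, but its best-known activators are not cyclins. These are p35, the product of CDK5R1, and p39, the product of CDK5R2. Both are best known from post-mitotic neurons. There the active kinase phosphorylates proteins of the cytoskeleton and the synapse during migration, axon growth and neurotransmission. The calcium-dependent protease calpain can cut the activators into shorter and longer-lived forms. The CDK5RAP proteins were named for binding to the kinase complex and have roles of their own: CDK5RAP1 modifies mitochondrial tRNAs, CDK5RAP2 is a centrosome protein that anchors gamma-tubulin complexes, and CDK5RAP3 is a partner of the UFM1 ligase UFL1.

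The libraries held 28483235 to 29359024 counts, and levels are given as CPM, counts over a common library size, on library sizes scaled by the trimmed mean of M-values (TMM). The control libraries stood further apart than those of any drug: the chi-square statistic of their counts per degree of freedom was 58.1, against 9.52 to 9.79 in the drug groups. The tests used an estimate of spread for each gene that all groups shared. SEs, intervals and p-values against the control therefore do not carry the wider control spread in full. The melanocytic markers had a summed level of 4240 to 5500 CPM in the control, most of it TYRP1 with a mean of 3550 CPM. The control means were 350 CPM for MITF, 206 CPM for MLANA, 505 CPM for PMEL and 209 CPM for SOX10. TYR averaged only 2.6 CPM, and DCT had at most 4 counts in a control library. HEXIM1, a gene known to rise under BET inhibition, changed by a log2 fold change (FC) of 1.23 with mivebresib (edgeR adjusted p = 1.35e-05). The other response genes read were less particular to a drug class. H1F0 averaged 172 CPM in the control and 335, 252 and 339 CPM under romidepsin, quisinostat and mivebresib. In the same order MYC averaged 101, 119, 61.9 and 174 CPM, and CDKN1A 291, 322, 214 and 275 CPM.

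CDK5R2 lies on chromosome 2 on the plus strand (GRCh38, chr2:218959655-218962162) and has a single exon of 2508 bases, while the other activator gene, CDK5R1, spans chr17:32486619-32491256 on the plus strand. The stretch just upstream of CDK5R2 is shown because this gene had by far the largest differences of the 6, and the matching stretch of CDK5RAP2 is shown because that gene fell with the BET inhibitor alone among the 3 drugs at the threshold used. Both come from the RefSeq promoter set on GRCh38.p14, read 5′ to 3′ on the strand of the gene and ended before the first exon base in GENCODE 29. Capitals mark GC boxes (GGGCGG) and CCAAT boxes on either strand.
CDK5R2, chr2:218959416-218959654, plus strand: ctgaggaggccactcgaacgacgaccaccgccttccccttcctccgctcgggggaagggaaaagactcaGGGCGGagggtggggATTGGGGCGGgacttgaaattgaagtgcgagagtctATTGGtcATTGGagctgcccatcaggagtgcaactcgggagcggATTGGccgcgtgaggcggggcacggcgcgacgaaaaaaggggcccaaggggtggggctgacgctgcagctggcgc
CDK5RAP2, chr9:120580171-120580417, minus strand: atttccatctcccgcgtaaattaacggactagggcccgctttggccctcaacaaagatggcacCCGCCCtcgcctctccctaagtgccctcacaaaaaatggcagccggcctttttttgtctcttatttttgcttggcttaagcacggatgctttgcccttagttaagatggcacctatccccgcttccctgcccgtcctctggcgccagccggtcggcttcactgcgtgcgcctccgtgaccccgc
The CDK5R2 stretch held 2 GC boxes and 4 CCAAT boxes, all of the latter in the ATTGG orientation, and 1 of them shares a base with a GC box (ATTGGGGCGG). The CDK5RAP2 stretch held 1 GC box and no CCAAT box. Of 35116 promoter windows of 250 bases, 24.3% held at least 2 GC boxes and 0.874% held at least 4 CCAAT boxes. These counts were not particular to CDK5R2 among the members. The 250-base window of CDK5RAP3 with the most CpG held 4 GC boxes and 4 CCAAT boxes, and the CDK5R1 window held 2 GC boxes. CDK5RAP3 did not pass the test against the control with any drug. The CCAAT motif was added to the search after the sequence had been read, so its share is a description only. The 250-base windows of the members differed widely in CpG dinucleotides, with 46 at CDK5R1, more than in 99.6% of windows, 21 at CDK5, 20 at CDK5R2, 17 at CDK5RAP2, 22 at the CDK5RAP3 window with the most and 12 at that of CDK5RAP1, beside a median of 11. The windows of CDK5 and CDK5R1 lie wholly inside an exon of the GENCODE models and are not shown. No member window held a cAMP response element (TGACGTCA), an E-box (CACGTG) or an M-box (CATGTG), which 1.65%, 6.34% and 9.42% of all windows held, and 1 window, of CDK5RAP1, held a TATA box (TATAAA), found in 10.7% of windows.

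CDK5R2, the gene of p39, was close to silent in untreated MP38 cells and present with every drug. The control libraries had 14 and 12 counts, or 0.496 and 0.438 CPM. With romidepsin there were 191 and 233 counts (6.56 and 8.02 CPM), and with mivebresib 168 and 133 counts (6.14 and 4.78 CPM). Quisinostat gave the highest level, with 770 and 828 counts (24.4 and 26.4 CPM). No drug library came near a control library, and both quisinostat libraries lay above all others. The log2 FC against the control was 3.95 for romidepsin, 5.75 for quisinostat and 3.53 for mivebresib, or 15.5-fold, 53.8-fold and 11.6-fold. Ordered from the highest log2 FC down, CDK5R2 was number 109 of the 15085 tested genes with romidepsin, number 147 with quisinostat and number 109 with mivebresib. In level it moved from the lower end of the tested genes to the middle: 12.5% and 11% of them were lower than CDK5R2 in the control libraries, 53.7% and 56% in the quisinostat libraries, and 31.1% to 36.2% in the other drug libraries. In bulk RNA, more cells that express a gene and more RNA per cell cannot be told apart.

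The differences between drugs, which the choice of CDK5R2 did not use, were tested directly at the doses given. CDK5R2 was 3.48-fold higher with quisinostat than with romidepsin (log2 difference 1.80 ± 0.14 (SE), 95% interval 1.47 to 2.13, edgeR adjusted p = 0.00011), both at 40 nM. It was 4.64-fold lower with mivebresib than with quisinostat (log2 difference -2.21 ± 0.15, 95% interval -2.55 to -1.88, edgeR adjusted p = 7.28e-06). Between mivebresib and romidepsin the log2 difference was -0.42 ± 0.16 with a 95% interval of -0.77 to -0.06, and it missed the threshold at an edgeR adjusted p of 0.0551. That last comparison lay on the threshold and passed it without control replicate 1 (-0.44, adjusted p = 0.0294), control replicate 2 (-0.42, 0.037), romidepsin replicate 1 (-0.56, 0.0485) or mivebresib replicate 1 (-0.61, 0.0336). The doses of mivebresib and the HDAC inhibitors differ, so these are differences between the treatments as given.

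The genes next to CDK5R2 on the chromosome were nearly unread. FEV, 18925 bases downstream of it on the opposite strand, averaged 0.0354 CPM in the control and at most 0.0635 CPM in a drug group, and the pseudogene KRT8P30, 5605 bases upstream, reached 0.0636 CPM. Neither passed the filter.

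**Figure D1:**
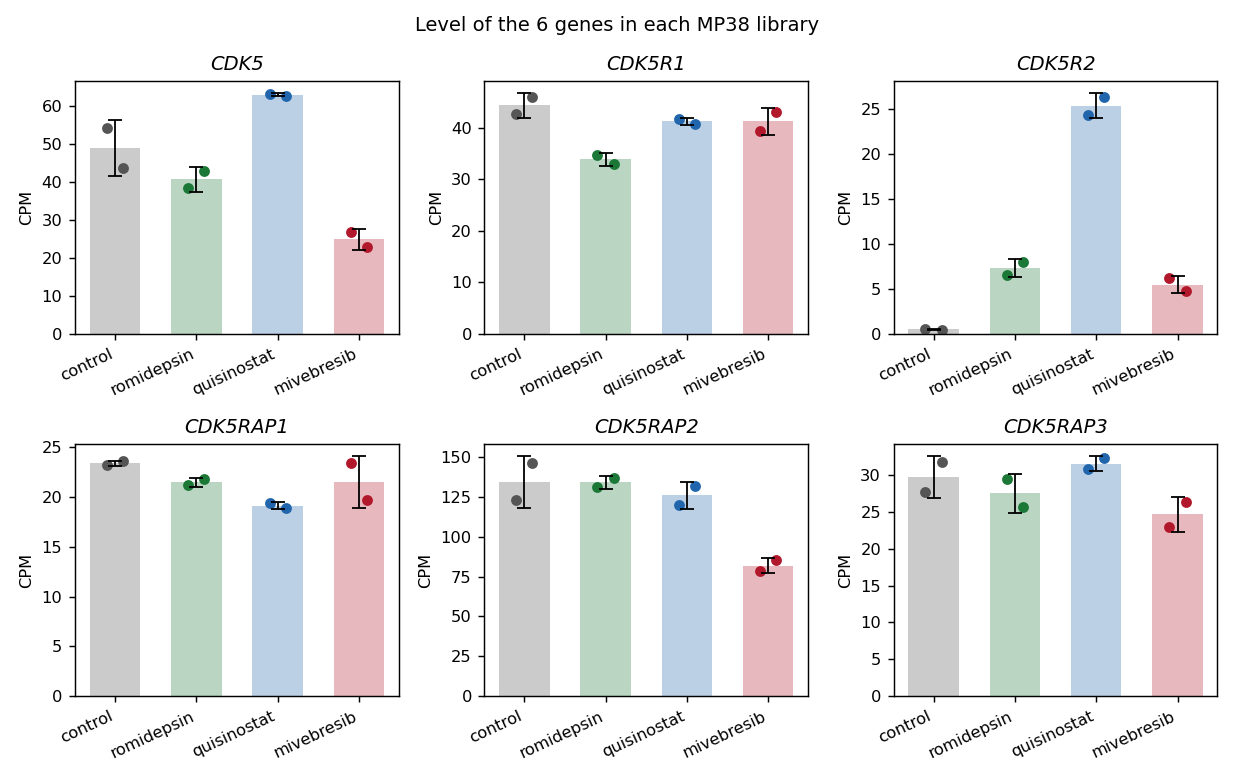
Level of each of the 6 genes in CPM (linear axes that start at 0) in the 4 groups of MP38 libraries. Points are libraries, bars are group means and error bars are the SD (n = 2). CDK5R2 goes from a mean of 0.467 CPM in the control to 25.4 CPM with quisinostat, while CDK5 and CDK5RAP2 are lowest with mivebresib.

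CDK5R1, the gene of p35 and the activator that untreated cells already expressed, stayed within a narrow range. The control libraries had 1206 and 1262 counts (42.7 and 46.1 CPM), the romidepsin libraries 1013 and 958 (34.8 and 33 CPM), the quisinostat libraries 1319 and 1282 (41.8 and 40.8 CPM), and the mivebresib libraries 1078 and 1200 (39.4 and 43.2 CPM). The romidepsin libraries were the lowest of all 8, while the mivebresib libraries overlapped the control. CDK5R1 fell with romidepsin by 0.39 ± 0.08 (SE) on the log2 scale (edgeR adjusted p = 0.00938), a call that was lost without romidepsin replicate 2 (log2 FC -0.35, adjusted p = 0.0764). Its log2 FC was -0.11 with quisinostat (95% interval -0.30 to 0.09, adjusted p = 0.317) and -0.10 with mivebresib (95% interval -0.30 to 0.09, adjusted p = 0.338). The quisinostat value turns positive under library size alone (0.10) and under upper-quartile scaling (0.03). Against romidepsin, CDK5R1 was higher by 0.28 with quisinostat (adjusted p = 0.0297) and by 0.28 with mivebresib (adjusted p = 0.0221), and neither difference held without either romidepsin library (0.24 and 0.32 for quisinostat, 0.25 and 0.32 for mivebresib) or without either quisinostat library (0.25 and 0.26 for quisinostat, 0.26 for mivebresib in both cases). The mivebresib difference was also lost without mivebresib replicate 2 (0.22). MYO1D, an unconventional myosin gene that ends 1266 bases from CDK5R1 on the opposite strand, rose with all 3 drugs, by 0.53, 0.89 and 0.50 on the log2 scale for romidepsin, quisinostat and mivebresib.

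Because only levels per length can be compared between genes, the activators were also set side by side as CPM per kilobase of exon, with 4.325 kb for CDK5R1 and 2.508 kb for CDK5R2. CDK5R2 made up 1.96% and 1.61% of the summed activator level in the control libraries, 24.5% and 29.5% in the romidepsin libraries, 50.2% and 52.7% in the quisinostat libraries, and 21.2% and 16% in the mivebresib libraries. With quisinostat the activator genes were therefore at about the same level per length, a mean of 9.55 CPM per kb for CDK5R1 and 10.1 CPM per kb for CDK5R2. The summed activator level averaged 10.5 ± 0.535 CPM per kb (SD, n = 2) in untreated cells, 10.7 ± 0.119 under romidepsin, 19.7 ± 0.409 under quisinostat and 11.7 ± 0.226 under mivebresib. The sum with quisinostat stood apart from the other groups, whose libraries ran from 10.1 to 11.9 CPM per kb.

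The level of CDK5 per kb relative to this sum averaged 2.67 ± 0.537 (SD, n = 2) in untreated cells, 2.15 ± 0.146 under romidepsin, 1.82 ± 0.0511 under quisinostat and 1.2 ± 0.154 under mivebresib. Every drug library, at 1.09 to 2.25, lay below both control libraries, at 3.05 and 2.29, although romidepsin replicate 2 did so by little. These ratios carry no test, since CDK5R2 enters the sum, and they rest on an exon length of 1.758 kb for CDK5. With all annotated CDK5 transcripts the means become 1.6, 1.29, 1.09 and 0.72 in the same order of groups, so whether CDK5 exceeds its activators with mivebresib depends on the length used. RNA levels per length do not give protein amounts or kinase activity.

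**Figure D2:**
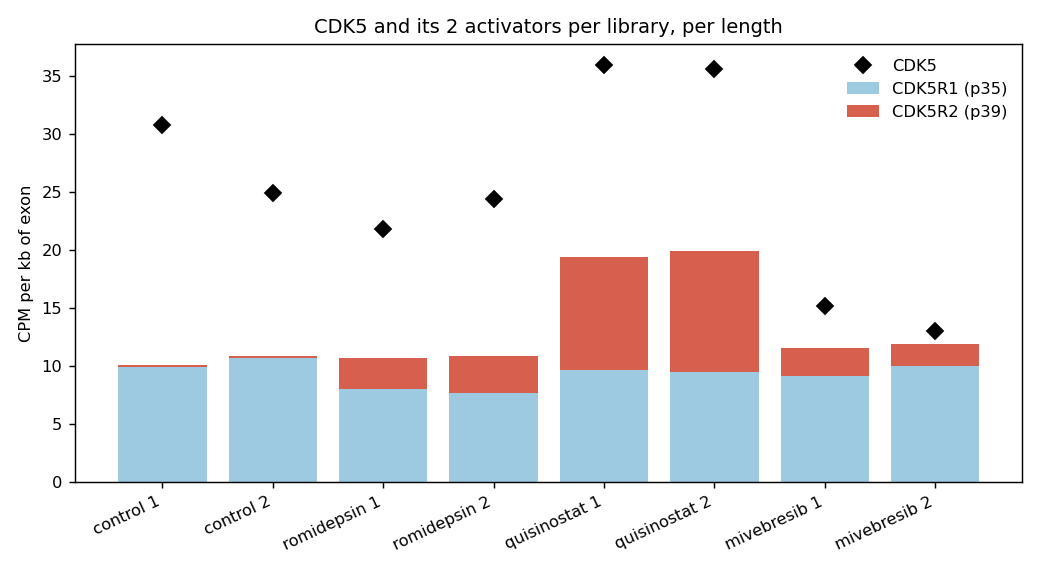
Level per kilobase of exon (CPM per kb) in each of the 8 MP38 libraries, with CDK5R1 (p35) and CDK5R2 (p39) stacked as bars and CDK5 as diamonds. The CDK5R2 share of the bar goes from 1.96% and 1.61% in the control libraries to 50.2% and 52.7% in the quisinostat libraries, and the diamonds come closest to the bars with mivebresib.

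CDK5, the kinase gene itself (chr7:151053812-151058530, minus strand), moved in opposite directions with quisinostat and mivebresib. The control libraries had 1527 and 1196 counts (54.1 and 43.7 CPM), and the romidepsin libraries 1116 and 1245 (38.3 and 42.9 CPM). There were 1997 and 1965 counts (63.2 and 62.6 CPM) with quisinostat and 730 and 636 (26.7 and 22.9 CPM) with mivebresib. Every quisinostat library was above, and every mivebresib library below, both control libraries, which were themselves far apart. CDK5 fell with mivebresib by 0.98 ± 0.12 (SE) on the log2 scale, 1.97-fold (edgeR adjusted p = 0.000339), and this call was kept when any library was left out (log2 FC -1.13 to -0.82).

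The rise of CDK5 with quisinostat was smaller, at a log2 FC of 0.36 ± 0.12 (adjusted p = 0.0321), and it was not robust. The call was lost without control replicate 2 (log2 FC 0.21, adjusted p = 0.114), romidepsin replicate 1 (0.36, 0.0501), quisinostat replicate 1 (0.36, 0.107) or quisinostat replicate 2 (0.36, 0.114). With romidepsin the log2 FC was -0.27 (95% interval -0.55 to 0.01, adjusted p = 0.126), which became -0.42 (adjusted p = 0.00933) without control replicate 2. Between drugs, CDK5 was higher with quisinostat than with romidepsin by 0.63 (adjusted p = 0.00476, but 0.55 and 0.0517 without romidepsin replicate 1), lower with mivebresib than with quisinostat by a log2 difference of -1.34 ± 0.12 (adjusted p = 3.95e-05), and lower with mivebresib than with romidepsin by -0.71 (adjusted p = 0.00172).

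CDK5 shares 319 exon bases with SLC4A2, an anion exchanger gene on the opposite strand. Whether the counting used strand is not given in the sources used here, so reads from the shared stretch cannot be assigned with certainty. SLC4A2 had a mean of 412 CPM in the control, and its log2 FC was -0.14 with romidepsin (adjusted p = 0.485), -0.45 with quisinostat (adjusted p = 0.0293) and -0.71 with mivebresib (adjusted p = 0.00443). The neighbour thus fell with mivebresib, where CDK5 fell, and fell with quisinostat, where CDK5 rose. Its part in the CDK5 values was not tested.

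Of the binding proteins, CDK5RAP2 had the largest change. This gene (chr9:120388869-120580170, minus strand), which is known from inherited microcephaly, was also the member with the most reads, with 3469 and 3984 counts in the control (123 and 146 CPM), 3807 and 3986 with romidepsin (131 and 137 CPM), 3795 and 4154 with quisinostat (120 and 132 CPM), and 2144 and 2367 with mivebresib (78.4 and 85.1 CPM). The mivebresib libraries lay below the other 6, which overlapped each other. CDK5RAP2 fell with mivebresib by 0.71 ± 0.10 (SE) on the log2 scale, or by 39.1% (edgeR adjusted p = 0.000704). The fall passed the test against the HDAC inhibitors too, at -0.63 against quisinostat (adjusted p = 0.000982) and -0.71 against romidepsin (adjusted p = 0.000659). All 3 calls were kept when any library was left out. Its log2 FC was 0.00 with romidepsin (95% interval -0.24 to 0.23) and -0.09 with quisinostat (95% interval -0.32 to 0.15). The sign of the quisinostat value turned under library size alone (0.11), upper-quartile scaling (0.04) and a mean CPM of at least 5 (0.01).

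CDK5RAP1 (chr20:33358839-33401561, minus strand), the mitochondrial tRNA modifier, hardly moved. Its counts were 655 and 646 in the control (23.2 and 23.6 CPM), 616 and 634 with romidepsin (21.2 and 21.8 CPM), 613 and 593 with quisinostat (19.4 and 18.9 CPM), and 640 and 548 with mivebresib (23.4 and 19.7 CPM). The quisinostat libraries were the lowest of the 8, and a mivebresib library fell between the control libraries. The log2 FC was -0.29 ± 0.10 (SE) with quisinostat, which passed the threshold at an edgeR adjusted p of 0.036, and -0.12 with both romidepsin (adjusted p = 0.374) and mivebresib (adjusted p = 0.358). The quisinostat call was lost without control replicate 2 (-0.28), either romidepsin library (-0.30) or either quisinostat library (-0.30 and -0.28), and without TMM scaling the log2 FC was -0.09 (adjusted p = 0.46).

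CDK5RAP3 (chr17:47967810-47981774, plus strand), the UFL1 partner, did not pass the test against the control with any drug. Its counts were 783 and 867 in the control (27.7 and 31.7 CPM), 856 and 743 with romidepsin (29.4 and 25.6 CPM), 972 and 1013 with quisinostat (30.8 and 32.3 CPM), and 629 and 731 with mivebresib (23 and 26.3 CPM). Only the mivebresib libraries were both below the control libraries, with a log2 FC of -0.27 (95% interval -0.52 to -0.01, edgeR adjusted p = 0.08), which passed without control replicate 1 (-0.36, adjusted p = 0.027). The log2 FC was -0.11 with romidepsin (95% interval -0.37 to 0.14) and 0.09 with quisinostat (95% interval -0.17 to 0.34). CDK5RAP3 was lower with mivebresib than with quisinostat by a log2 difference of -0.35 (adjusted p = 0.0236), but not without quisinostat replicate 1 (-0.40, adjusted p = 0.0633), quisinostat replicate 2 (-0.31, 0.131) or mivebresib replicate 1 (-0.26, 0.155).

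Counted against the control at an adjusted p below 0.05 and leaving out CDK5R2, romidepsin raised 0 and lowered 1 of 5 members, where it raised 15.2% and lowered 15.8% of all tested genes (31.0% in either direction). Quisinostat raised 1 and lowered 1 of 5, beside 28.0% and 25.1% (53.2%), and mivebresib raised 0 and lowered 2 of 5, beside 22.2% and 24.1% (46.2%). None of the 5 went beyond a log2 FC of 1.5 with any drug. Among all tested genes, 3.77% were called higher and 0.312% lower beyond 1.5 with romidepsin, 11.2% and 1.03% with quisinostat, and 3.96% and 4.36% with mivebresib. Of all 6 members, 3 were higher and 0 lower with quisinostat than with romidepsin, beside 21.0% and 14.6% of tested genes (35.6%). With mivebresib, 0 were higher and 4 lower than with quisinostat, beside 26.2% and 31.5% (57.7%), and 1 was higher and 2 lower than with romidepsin, beside 23.7% and 25.2% (48.9%). With 5 or 6 genes, the shares called in either direction lay near those of all tested genes.

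**Figure D3:**
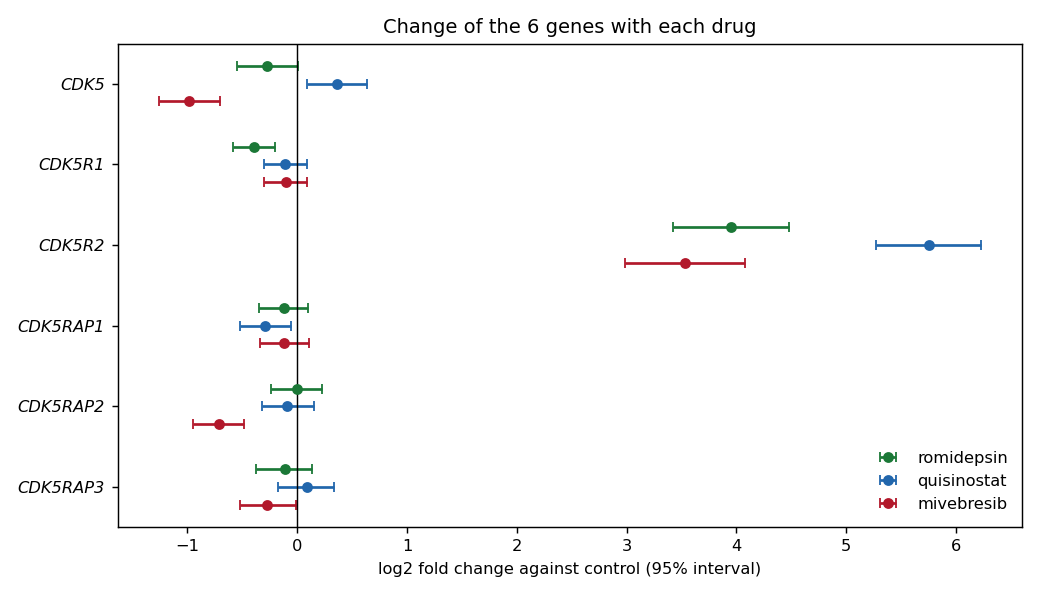
log2 fold change of the 6 genes with each drug against the control, from edgeR over all 8 MP38 libraries. Points are estimates and bars their 95% intervals. CDK5R2 stands at 3.53 to 5.75, and the other 5 genes lie between -0.98 and 0.36. The values and intervals of CDK5R2 are a description and not a test, since it was chosen for these values.

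The surroundings of the kinase were described with 8 lists of 94 genes, 92 of them tested. They were regulators of the kinase or its activators, and substrates of the cytoskeleton, of the synapse and elsewhere. Further lists held centrosome partners of CDK5RAP2, UFMylation partners of CDK5RAP3, other tRNA modification genes and the other CDKs. Romidepsin raised 13 and lowered 21 of the 92 (31.0% of all tested genes were called in either direction), quisinostat raised 29 and lowered 36 (53.2%), and mivebresib raised 22 and lowered 27 (46.2%). Of the 29, 2 genes passed the filter on low counts only through the quisinostat libraries, which leaves 27. In both control libraries 7 of the 92 lay below the level the filter asks for, so they were tested because of drug libraries. Among them were 3 of the 13 raised with romidepsin, 6 of the 29 with quisinostat and 2 of the 22 with mivebresib. The median log2 FC of the 92 was -0.06, -0.11 and 0.03, beside -0.012, -0.00361 and 0.00669 over all tested genes.

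The neuronal substrates of CDK5 came next. Of 14 tested cytoskeletal substrates, romidepsin raised 6 and lowered 1, quisinostat raised 8 and lowered 4, and mivebresib raised 8 and lowered 3, with median log2 FCs of 0.33, 0.53 and 0.48. The shares raised were 42.9%, 57.1% and 57.1%, beside 15.2%, 28.0% and 22.2% of all tested genes. The shares lowered were 7.14%, 28.6% and 21.4%, beside 15.8%, 25.1% and 24.1%. The neurofilament gene NEFH averaged 0.289 CPM in untreated cells and 1.77, 4.9 and 2.41 CPM under romidepsin, quisinostat and mivebresib, and its partner NEFM 1.15, 3.75, 8.83 and 4.62 CPM, with all 6 changes called. MAPT, which encodes the microtubule-binding protein tau, rose by log2 FCs of 1.27, 2.63 and 1.19 from 5.22 CPM, and DPYSL3, a collapsin response mediator, by 1.21, 3.22 and 1.03 from 2.3 CPM. These 4 had their highest mean level with quisinostat, but MAP2, named after its values were seen as the fifth gene beyond 1.5 with that drug, had 22.2, 41.4, 91.9 and 113 CPM in the control and under romidepsin, quisinostat and mivebresib, so the list did not share the order of CDK5R2.

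Of 11 tested synaptic substrates, romidepsin raised 5 and lowered 0, quisinostat raised 9 and lowered 1, and mivebresib raised 4 and lowered 4, with median log2 FCs of 0.35, 1.09 and 0.25. The shares raised were 45.5%, 81.8% and 36.4%, beside 15.2%, 28.0% and 22.2% of all tested genes. The shares lowered were 0%, 9.09% and 36.4%, beside 15.8%, 25.1% and 24.1%. SYN1, the synaptic vesicle protein synapsin, averaged 0.215 CPM in untreated cells and 1.86, 5.84 and 2.14 CPM under the 3 drugs, and amphiphysin (AMPH) 0.198, 0.842, 5.83 and 2.86 CPM, all called. In 3 genes of the list, SYN1, AMPH and NGEF, both control libraries lay below the level the filter asks for, so they were tested because of drug libraries. The shares raised include them: they were 3 of the 5 genes raised with romidepsin, 3 of the 9 with quisinostat and 2 of the 4 with mivebresib. The calcium channel gene CACNA1B rose by log2 FCs of 1.23, 3.62 and 3.16. NGEF rose by 1.89 with romidepsin and 5.42 with quisinostat, while its 1.18 with mivebresib missed the threshold (edgeR adjusted p = 0.0799). The 3 synaptic genes that mivebresib lowered beyond 1.5, named here after their values were seen, were the glutamate receptor subunit genes GRIN2B (-2.82) and GRIN2A (-2.14) and the scaffold gene DLG4 (-1.70), each of which quisinostat raised (0.63, 1.09 and 0.61).

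Genes that work with CDK5RAP2 or CDK5RAP3, and tRNA modification genes other than CDK5RAP1, were described in the same way. Of all tested genes, romidepsin, quisinostat and mivebresib raised 15.2%, 28.0% and 22.2% and lowered 15.8%, 25.1% and 24.1%. For the centrosome partners the shares were 0%, 0% and 18.8% raised and 43.8%, 62.5% and 25% lowered. Of 16 centrosome partners of CDK5RAP2, romidepsin raised 0 and lowered 7, quisinostat raised 0 and lowered 10, and mivebresib, the drug with which CDK5RAP2 itself fell, raised 3 and lowered 4, with median log2 FCs of -0.34, -0.50 and 0.05. WDR62, a spindle pole protein gene, fell with all 3 drugs (-0.99, -1.54 and -0.48). Of 8 partners of CDK5RAP3 in UFMylation, the drugs in the same order raised 0, 2 and 1 and lowered 1, 3 and 2. Of 5 other tRNA modification genes they raised 1, 1 and 0 and lowered 2, 3 and 4, with median log2 FCs of -0.18, -0.31 and -0.70. Neither list had a change beyond 1.5.

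Among 9 regulators of the kinase or its activators, such as calpain subunits and CABLES adaptors, romidepsin raised 1 and lowered 3, quisinostat raised 3 and lowered 4, and mivebresib raised 2 and lowered 4, none beyond 1.5. Of 9 other substrates, they raised 0, 1 and 1 and lowered 2, 3 and 2. The single rise with quisinostat was PPARG, an adipogenic factor gene with 37 and 45 counts there and at most 13 elsewhere, which passed the filter only through the quisinostat libraries and so had to be high in them. Of 20 other CDKs, romidepsin raised 0 and lowered 5, quisinostat raised 5 and lowered 8, and mivebresib raised 3 and lowered 4. As shares these were 0%, 25% and 15% raised and 25%, 40% and 20% lowered. Of all tested genes, the drugs in this order raised 15.2%, 28.0% and 22.2% and lowered 15.8%, 25.1% and 24.1%. CDK14 rose with quisinostat (log2 FC 3.25, from 0.25 to 2.43 CPM). It lay below the level the filter asks for in both control libraries, so it was tested because of drug libraries. CDK15, called as well, had 13 and 11 counts with quisinostat, at most 7 elsewhere, and passed the filter only through the quisinostat libraries.

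**Figure D4:**
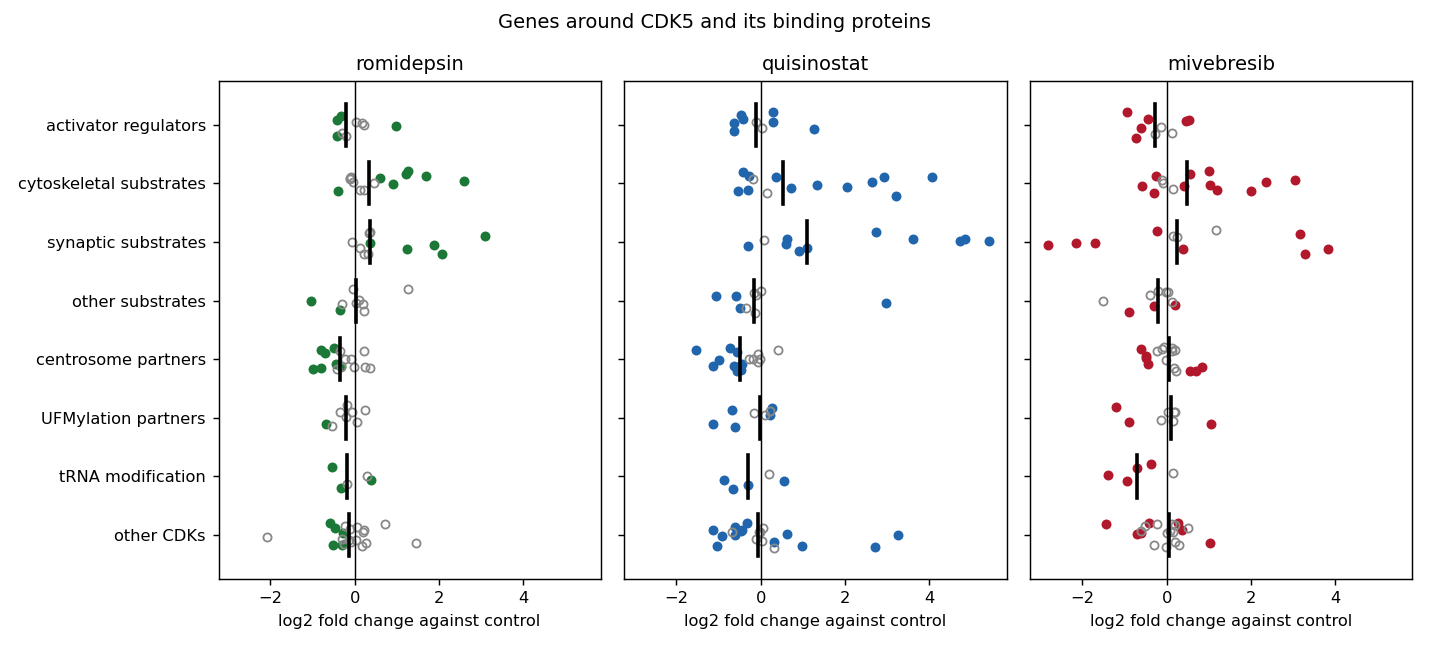
log2 fold change against the control of the tested genes of 8 lists around CDK5, in 3 panels by drug. Each point is a gene, filled where the adjusted p was below 0.05, points are spread vertically only to separate them, and the black bar is the median of the list. The synaptic and cytoskeletal substrates reach furthest to the right with quisinostat, up to 5.42, and the centrosome partners have medians of -0.34, -0.50 and 0.05.

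The melanocytic markers, those of the cells' own type, were lower mainly with quisinostat and mivebresib. Of 7 tested, romidepsin raised 0 and lowered 1 (median log2 FC 0.02). Quisinostat raised 0 and lowered 4 (median -0.58), and mivebresib raised 0 and lowered 5 (median -0.98). The shares lowered were 14.3%, 57.1% and 71.4%, beside 15.8%, 25.1% and 24.1% of all tested genes. MITF averaged 350 CPM in the control, 301 under romidepsin, 133 under quisinostat and 126 under mivebresib, and SOX10 averaged 209, 159, 110 and 55 CPM. Other markers moved less with quisinostat. In the same order PMEL averaged 505, 557, 501 and 354 CPM, and TYR 2.6, 3.13, 3.22 and 1.58 CPM. TYRP1, which made up most of the sum, averaged 3550, 3680, 2990 and 3120 CPM. The summed level of all 8 was 4780 to 5070 CPM under romidepsin, 3590 to 4140 under quisinostat and 3720 to 3800 under mivebresib. Markers of other cell types were read as well, since the product of CDK5R2 is best known from neurons. Of 8 neuronal markers, 7 were tested: romidepsin raised 3 and lowered 1, quisinostat raised 5 and lowered 0, and mivebresib raised 2 and lowered 0. Of the 5 with quisinostat, ELAVL3 and STMN2 passed the filter on low counts only through the quisinostat libraries, which leaves 3. RBFOX3 also lay below the level the filter asks for in both control libraries, so 3 of the 5 were tested because of drug libraries. Of the 3 with romidepsin, 1 lay below the level the filter asks for in both control libraries. The shares raised were 42.9%, 71.4% and 28.6% before these are left out, beside 15.2%, 28.0% and 22.2% of all tested genes. The summed level of the neuronal markers was 124 to 131 CPM in untreated cells, 171 to 172 under romidepsin, 231 to 244 under quisinostat and 469 to 523 under mivebresib, so the sum was highest with the drug that gave the lowest CDK5R2 of the 3. The sums were made up mainly of TUBB3 and INA. TUBB3 had a mean of 78.4 CPM in the control and 367 with mivebresib, but was the marker that romidepsin lowered, to 46.8 CPM. INA had 47.4 CPM in the control and 123 to 136 CPM with the drugs. The other markers were low in the control and some were higher with quisinostat. SNAP25, a synaptic membrane fusion protein gene, averaged 0.54 CPM in the control and 0.997, 7.86 and 0.291 CPM under the 3 drugs, and RBFOX3, the gene of the neuronal nuclear antigen NeuN, 0.234, 0.189, 0.889 and 0.454 CPM. STMN2 had at most 1 count in a control library, 7 and 9 with romidepsin, and 17 and 37 with quisinostat. ELAVL3 had at most 2 in a control library and 10 and 11 with quisinostat, and ELAVL4 at most 2 in any library. The 4 endothelial markers summed to 0.602 to 0.913 CPM in untreated cells, 3.03 to 3.57 under romidepsin, 5.16 to 5.83 under quisinostat and 1.13 to 1.4 under mivebresib, with CDH5 at 0 in every library. The 5 fibroblast markers summed to 14.1 to 22.1, 20.2 to 24.6, 34.6 to 35.5 and 8.19 to 10.6 CPM in the same order. The 5 leukocyte markers summed to 61.2 to 83.2 CPM over all libraries, nearly all of it CD68, with CD3E and AIF1 at 0. The part of these markers in the CDK5R2 levels was not tested.

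Over the 8 libraries, the genes whose log2 CPM was most like that of CDK5R2 among the 15085 tested were PHOSPHO1 (Pearson r = 0.9984), DPF3 (0.9944), KIF5C (0.9943), NLRP6 (0.9937) and ERC2 (0.9927). The points share libraries and treatments, so no p is given. KIF5C, a neuronal kinesin heavy chain, had 2.65 CPM in untreated cells and 47.8, 191 and 36.6 CPM under the 3 drugs, the same order of groups as CDK5R2. PHOSPHO1, a phosphatase of bone mineralisation, had 0.503, 2.96, 7.6 and 2.78 CPM, and DPF3, a subunit of a chromatin remodelling complex, 1.67, 4.88, 8.59 and 4.72 CPM. ERC2, a protein of the presynaptic active zone, and NLRP6 were near or at 0 in the control (0.0537 and 0 CPM) and reached 3.03 and 0.445 CPM with quisinostat. Both were therefore tested because of drug libraries. NLRP6 averaged only 0.172 and 0.181 CPM under romidepsin and mivebresib. Its place in the search thus came from the quisinostat libraries, and its likeness was partly set by the filter.

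For CDK5 the 5 most alike genes were SUDS3 (r = 0.9922), ZNF32 (0.992), TTC33 (0.9873), SEPT5 (0.9865) and TMEM99 (0.986). SUDS3, a subunit of the SIN3 histone deacetylase complex, had means of 53.1 CPM in untreated cells and 51.6, 58.7 and 43.7 CPM under the 3 drugs. SEPT5, a septin gene, had 39.8, 31.5, 53.3 and 14.4 CPM in that order, beside 48.9, 40.6, 62.9 and 24.8 CPM of CDK5.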

How the data were processed

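Bulk RNA sequencing libraries of MP38 cells in 4 groups of 2 were grouped by their GEO labels. Per the labels and the methods of the study, strand-specific mRNA libraries were read as 150-base pairs, mapped to hg38 and analysed by the authors with BioJupies and limma; the aligner, the annotation and the use of strand in counting are not given in the sources used here. The authors deposited unnormalized counts per symbol, used here, and a table of log10 values, which equals log10(CPM + 1) of the counts within 4.4e-16 and was only checked. A quantile-normalized score that the authors deposited was not used.

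All 8 libraries were fitted together by the quasi-likelihood method of edgeR 4.0.16 in R 4.3.3 with TMM scaling, filterByExpr by group and Benjamini-Hochberg adjustment over 15085 genes (biological coefficient of variation 0.0938). The threshold for a call was an adjusted p of 0.05. SEs were derived from the F statistic. log2 CPM used a prior count of 2. The fit was tested on simulated data. Alternatives were DESeq2 1.42.0, limma-voom (limma 3.58.1), other scalings, filters and thresholds, fits of the 4 libraries compared, a replicate block and leaving out each library. Coordinates and exon lengths came from GENCODE 29 (basic set) and promoters from RefSeq, in which 6 of 6 members matched. Depth was even (28483235 to 29359024 counts), so precision is limited by having 2 libraries per group.

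The members, lists and the rule for named genes (the members, up to 4 list genes beyond a log2 FC of 1.5, markers, response genes, neighbours and the 5 genes most alike) were chosen with earlier results of these data known. Some results that this rule allows are not reported here.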

Additional observations from a re-analysis of the deposited data

Results flagged for a closer look

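CDK5 differed in its response between quisinostat and mivebresib by a test of the difference itself, with a log2 difference of -1.34 for mivebresib against quisinostat (edgeR adjusted p = 3.95e-05). Its log2 FC against the shared control was 0.36 and -0.98, and the difference ran from -1.46 to -1.23 with any library left out.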

How the results depend on the processing

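The log2 FCs of the members and the counts of called members and pathway genes were recomputed under the planned settings (an adjusted p below 0.01 only against control) and with each of the 8 libraries left out, and log2 CPM with another prior count. The activator shares, CDK5 ratios, single list genes, marker sums and likeness values were not. With a library left out, a lone library was assumed to vary like the other groups. The falls of CDK5 and CDK5RAP2 with mivebresib, and the higher CDK5R2 with quisinostat than with romidepsin or mivebresib, kept their direction and stayed past the threshold in every setting run. Causes were not tested. The 2 libraries per group are the main limit, since depth was high for all members but CDK5R2 in the control, at 12 and 14 counts.

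CDK5 with quisinostat dropped below the threshold without a filter on low counts (log2 FC 0.34), with only the 4 libraries of the comparison (0.37) and at an adjusted p below 0.01 (0.36), and ran from 0.21 to 0.52 with a library left out; with romidepsin it ran from -0.42 to -0.08. CDK5R1 with romidepsin dropped below it with only the 4 libraries (-0.36), and ran from -0.43 to -0.34 with a library left out. CDK5RAP1 with quisinostat dropped below it under DESeq2 (-0.30), library size alone (-0.09), upper-quartile factors (-0.16), a mean CPM filter of 5 (-0.19), the 4 libraries compared (-0.29) and an adjusted p below 0.01 (-0.29), and ran from -0.31 to -0.28. The log2 FC of CDK5R2 with quisinostat was 5.95 under library size alone and 5.88 under upper-quartile factors, and with mivebresib it ran from 3.34 to 3.70 with a library left out. CDK5RAP3 ran from -0.37 to -0.17 with mivebresib and from -0.01 to 0.18 with quisinostat.

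Values near 0 changed sign. CDK5R1 with quisinostat became 0.10 under library size alone and 0.03 under upper-quartile factors. CDK5RAP2 with quisinostat became 0.11, 0.04 and 0.01 under library size alone, upper-quartile factors and a mean CPM of at least 5 (-0.21 to 0.03 with a library left out). CDK5RAP2 with romidepsin became 0.01 under DESeq2 and RLE factors, 0.00 under limma-voom and the replicate block, 0.07 under library size alone, 0.08 under upper-quartile factors, 0.06 with a mean CPM of at least 5 and 0.02 with only the 4 libraries (-0.10 to 0.12). CDK5RAP1 with mivebresib ran from -0.25 to 0.00. CDK5R1 between mivebresib and quisinostat became 0.00 under limma-voom and the replicate block, -0.18 under library size alone, -0.08 under upper-quartile factors and -0.07 with a mean CPM of at least 5 (-0.06 to 0.07). CDK5RAP1 between mivebresib and romidepsin became -0.01 under DESeq2, RLE factors and only the 4 libraries, 0.00 under limma-voom and no filter, -0.05 under library size alone, and -0.03 under upper-quartile factors and a mean CPM of at least 5 (-0.13 to 0.12), and between mivebresib and quisinostat -0.01 under library size alone. CDK5RAP2 between quisinostat and romidepsin became 0.04 under library size alone.

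Members other than CDK5R2 changed by quisinostat numbered 1 under DESeq2, no filter, a mean CPM of at least 5, upper-quartile factors and library size alone, and 0 with only the 4 libraries and at an adjusted p below 0.01 (0 to 2 with a library left out). Those changed by romidepsin numbered 0 with only the 4 libraries (0 to 2), and members that differed between quisinostat and romidepsin numbered 1 to 3. Romidepsin raised 22 pathway genes under library size alone and upper-quartile factors (9 to 20 with a library left out) and lowered 9 with only the 4 libraries (8 to 26). The median gene under quisinostat stood at 0.20 with library size alone and 0.13 with upper-quartile factors, and of all called genes the share that was higher went from 52.7% to 72.4% and 65.4% (for romidepsin from 49.1% to 62.1% and 63.4%).

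Same-numbered libraries of different groups did not deviate together (r between -0.16 and 0.16), so the values gave no sign of pairing by number. They cannot exclude that same-numbered wells were handled together, since the control libraries stood far apart, and the labels do not say. With the replicate block no call of a member changed.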
